A study of Mus musculus with 4 samples.

Results

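The genes described are those of the proteasome, the barrel-shaped protease that degrades ubiquitin-tagged proteins, in sorted mouse erythroid cells labelled as Adar knockout or control. They were taken by symbol, as every row of the deposited gene table that begins with Psma to Psmg followed by a digit, which gave 46 of 10716 genes. Psmb10, Psme1 and Psme2, which interferon is known to induce, were contrasted with the other 43. Of the 5 inducible genes named for this contrast, Psmb8 and Psmb9 had no row under these symbols, so it rests on 3. One of the 46, Psmc3ip, encodes a meiotic recombination factor that binds an ATPase subunit and is no part of the proteasome. All 46 exceeded 1 CPM (counts per unit of sequencing depth, with library sizes scaled by the TMM method) in at least 2 libraries, as did every row of the table.

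RNA was sequenced from C57BL/6 fetal livers at embryonic day 14.5, from erythroid cells sorted for the yellow fluorescence of the R26eYFP reporter. There were 2 libraries labelled knockout (replicates 1 and 2), with the genotype label Epor-Adar / +, and 2 wild type libraries (replicates 3 and 8), called controls. Epor is the erythropoietin receptor gene, and the labels do not spell out the deleting construct or give the state of each Adar allele. Nor do they tie each library to an embryo of its own, so a p-value here reflects the spread between libraries, which may be technical. Adar encodes ADAR1, an enzyme that edits adenosine to inosine in double-stranded RNA. The comparison asks which transcripts differ between the libraries labelled knockout and the controls.

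The core of the proteasome is a stack of rings, with outer rings of alpha subunits that gate the barrel and inner rings of beta subunits, of which Psmb5, Psmb6 and Psmb7 carry the protease sites. Caps bind its ends: the regulatory particle, whose ATPases (Psmc genes) unfold tagged proteins and whose other subunits (Psmd genes) recognise and deubiquitinate them, or activators of the 11S family (Psme1, Psme2 and Psme3) and PA200 (Psme4), which open the gate without ATP. In cells exposed to interferon, Psmb8, Psmb9 and Psmb10 replace Psmb5, Psmb6 and Psmb7 in newly made cores, giving the immunoproteasome, which favours peptides that fit MHC class I molecules. In maturing erythroid cells the proteasome clears unpaired globin chains and much of the proteome that the red cell does not keep.

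Total counts ran from 28356401 to 44016809 per library. Adar itself had 67.1 and 102 CPM under the knockout label and 50.9 and 46.9 CPM in the controls (log2 fold change 0.79, SE 0.25, edgeR quasi-likelihood adjusted p = 0.377). Adar was thus not lower under the knockout label, and a count over the whole gene does not test the deletion of single exons. In 3 of the 4 libraries, both knockout-labelled ones and control replicate 3, Y-linked reads did not match the labelled sex. Over 4 Y-linked genes there were 11705 and 3 counts in knockout-labelled replicates 1 and 2. Control replicates 3 and 8 had 5599 and 10695. Of 10 erythroid markers 9 were measured, with a summed level of 69496 and 69699 CPM under the knockout label and 98854 and 65335 CPM in the controls. The 5 measured of 7 neutrophil and mast cell markers summed to 217 CPM in knockout-labelled replicate 1 and to between 29.2 and 34.9 CPM in the others. The 10 measured of 12 macrophage markers summed to 51.7 and 28.1 CPM against 62.1 and 36.7 CPM. Of these markers, 6 were lower in both libraries labelled knockout than in either control (26.7% of all genes). Lyz2 alone had a positive log2 fold change, with 43.1 and 8.32 CPM against 9.68 and 10.9 CPM. It thus made up most of the sum in knockout-labelled replicate 1. Megakaryocyte markers (5 of 6) summed to 149 and 102 CPM against 59.8 and 86.6, and endothelial markers (5 of 5) to 27.7 and 32.2 CPM against 13.995 and 12.5. Hepatoblast markers (5 of 6) summed to 49.5 and 55.5 CPM against 104 and 40.2, and the 1 measured of 7 lymphoid markers, Ptprc, had 9.56 and 1.94 CPM against 2.03 and 1.54. No measured marker was at 0 counts in any library, and the part of these cells in the results below was not tested. In such bulk samples, fewer cells of a type and less RNA per cell cannot be told apart.

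None of the 46 members passed the quasi-likelihood test of edgeR in either direction, at 0.05 after Benjamini-Hochberg adjustment over the whole table. Over all 10716 genes 11 passed as higher (0.103%) and 0 as lower (0.0%). At an unadjusted p below 0.05 there was 1 member, Psme1, against 11.9% of all genes. Psme1 alone among the members was called higher by DESeq2, which called 3.29% of all genes higher, and by the likelihood ratio test of edgeR (3.09% of all genes). In the authors' deposited table, none of the 46 had an adjusted p below 0.05, and the smallest, 0.339, belonged to Psme1.

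Psme1 encodes the alpha subunit of the 11S activator PA28, the cap that interferon induces. Psme1 (ENSMUSG00000022216, chr14:56196960-56200366 of NCBIM37, plus strand) had 91.4 and 65.3 CPM in knockout-labelled replicates 1 and 2, and 35.1 and 40.8 CPM in control replicates 3 and 8. Both knockout-labelled libraries were above both controls (27.4% of all genes), with means of 78.4 ± 18.5 and 37.9 ± 4.01 CPM (SD, n = 2 each). The log2 fold change was 1.05 (SE 0.23, 95% interval 0.47 to 1.62 before any adjustment, edgeR quasi-likelihood adjusted p = 0.276). With DESeq2 it was 1.04 (adjusted p = 0.0138), and with the likelihood ratio test 1.05 (adjusted p = 0.0166). In edgeR's quasi-likelihood test it became 1.26 (adjusted p = 0.00118) when knockout-labelled replicate 2 was left out and 0.78 (adjusted p = 0.0987) when replicate 1 was. It became 0.94 (edgeR adjusted p = 0.962) when control replicate 3 was left out and 1.15 (edgeR adjusted p = 0.506) when control replicate 8 was. Each of these fits leaves 1 library in an arm, so its spread comes from the other arm alone and the lone library is assumed to vary likewise. It shares 14 exon bases with Fam158a on the other strand.

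Psme2 encodes the beta subunit of the same PA28 ring and lies near Psme1, in the opposite orientation (ENSMUSG00000079197, chr14:56206278-56209950 of NCBIM37, minus strand). It had 53.9 and 59.4 CPM under the knockout label and 46.8 and 52.4 CPM in the controls. The knockout-labelled libraries were above the controls (27.4% of all genes). Yet the gap between the lower of them and the higher control was small beside the range within each group. The log2 fold change was 0.19 (SE 0.19, 95% interval -0.27 to 0.65, edgeR adjusted p = 0.605). The annotation holds a near copy on chromosome 11, Psme2b-ps, identical to Psme2 at 789 of 794 aligned transcript bases (99.4%), and how shared reads were counted is not given in the sources used here, so the count of Psme2 is uncertain.

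Psmb10 encodes the inducible beta subunit that takes the place of Psmb7 (ENSMUSG00000031897, chr8:108459628-108462292 of NCBIM37, minus strand). It had 8.22 and 12.7 CPM under the knockout label and 12.7 and 18.3 CPM in the controls. Its highest knockout-labelled value and its lowest control value were nearly equal, and the 2 libraries of each group spanned a wide range. The log2 fold change was -0.56 (SE 0.32, 95% interval -1.36 to 0.23, edgeR adjusted p = 0.456). Leaving out knockout-labelled replicate 2 gave -0.93 (edgeR adjusted p = 0.0324, with the spread of the controls alone), and leaving out replicate 1 gave -0.29. The value of Psmb10 thus had the opposite sign to that of Psme1, and neither passed the test over all genes.

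The counterparts of these genes had the following values. Psmb7, the constitutive trypsin-like beta subunit that Psmb10 replaces, had 197 and 193 CPM under the knockout label and 206 and 231 CPM in the controls (log2 fold change -0.16, SE 0.19). Psme3, which encodes the nuclear member of the 11S family, had 461 and 765 CPM against 766 and 675 CPM (-0.23, SE 0.30). Only knockout-labelled replicate 1 was low for Psme3, and without it the log2 fold change was 0.09. Psmb5, the constitutive chymotrypsin-like subunit, had 48.7 and 63.9 CPM against 64.4 and 77.7 CPM (-0.34, SE 0.22). Psmb6, the constitutive caspase-like subunit, had 73.1 and 86.3 CPM against 99.3 and 103 CPM (-0.34, SE 0.19). For Psmb5, Psmb6 and Psmb7 both knockout-labelled libraries were below both controls (26.7% of all genes), by less than 1 CPM between the nearest libraries for Psmb5.

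**Figure D1:**
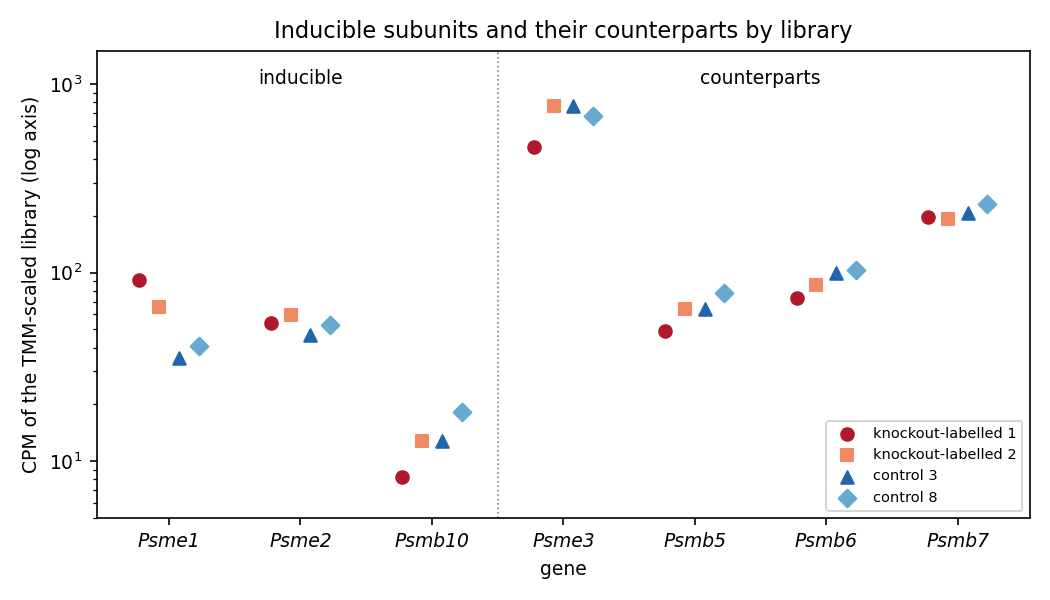
CPM of the TMM-scaled library (log axis) of the 3 measured inducible genes and 4 counterparts, with 1 point for each of the 4 libraries. Psme1 is higher in both knockout-labelled libraries (91.4 and 65.3 CPM) than in the controls (35.1 and 40.8 CPM), while Psmb10 and the beta counterparts are not.

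Within a pair of genes the share of reads does not depend on library scaling, and it shows how far the inducible partner stands against its counterpart. Of 4 planned pairs 2 could be measured, since Psmb8 and Psmb9, planned against Psmb5 and Psmb6, had no row. Reads of Psme1 plus Psme2 made up 24.0% of the reads of Psme1, Psme2 and Psme3 in knockout-labelled replicate 1 (Wilson 95% interval 23.4 to 24.6%, 18584 reads) and 14.02% in replicate 2 (13.7 to 14.4%, 34334 reads). In the controls they made up 9.65% (9.28 to 10.04%, 23392 reads) and 12.1% (11.8 to 12.5%, 36346 reads). The groups did not overlap, and the means were 18.99 ± 7.03% and 10.9 ± 1.75% (SD, n = 2 each). The difference of 8.10 percentage points had p = 0.333 in a two-sided exact permutation test, the smallest p that 2 against 2 allows. Knockout-labelled replicate 1 also had the lowest Psme3, and without that library the difference was 3.13 points.

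Psmb10 made up 4.02% of the reads of Psmb10 and Psmb7 in knockout-labelled replicate 1 (Wilson 95% interval 3.56 to 4.53%, 6276 reads) and 6.18% in replicate 2 (5.67 to 6.73%, 7951 reads). In the controls it made up 5.81% (5.25 to 6.43%, 6039 reads) and 7.34% (6.88 to 7.82%, 11779 reads). Replicate 2 lay between the controls, so the groups overlapped. The difference of -1.48 points had p = 0.667 (two-sided exact permutation test, n = 2 each). Intervals cover counting error only and take each read as independent, and the labels name no molecular identifiers by which to check this.

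Within PA28 the balance of the subunits also differed between libraries, a ratio chosen after its values were seen and given with no test. Psme1 supplied 62.9% and 52.4% of the reads of Psme1 and Psme2 in the knockout-labelled libraries. In the controls it supplied 42.9% and 43.8%. The controls lay within 1 point of each other and below both knockout-labelled libraries.

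**Figure D2:**
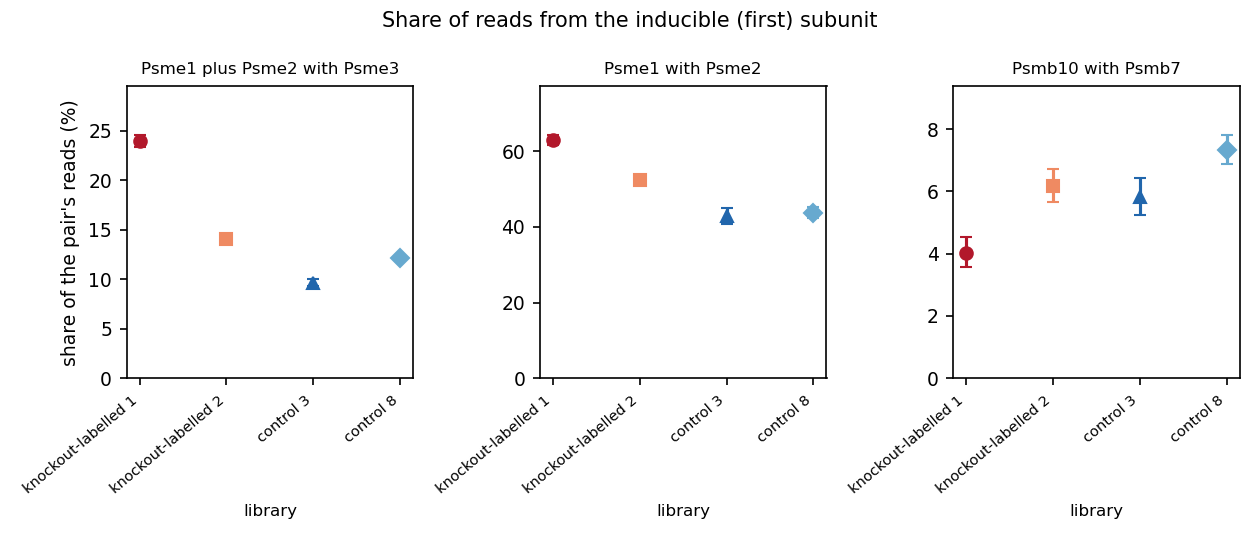
Share of a pair's reads (%) that come from the first-named gene or genes in each of the 4 libraries, with Wilson 95% intervals. In the pair of Psme1 with Psme2 both genes are inducible, and in the other pairs the last-named gene is the counterpart. The share of Psme1 plus Psme2 against Psme3 is 24.0% in knockout-labelled replicate 1 and between 9.65% and 14.02% in the other libraries, and that of Psmb10 against Psmb7 is lowest, 4.02%, in the same replicate.

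Sequence before a RefSeq start of each of the 3 inducible genes is shown because their values differed among themselves, and because interferon factors are known to act through short elements near starts. The window searched was the 250 bases before the start (build GRCm38.p6). Each window matched the NCBIM37 genome letter for letter at 1 place, at chr14:56197081-56197330 for Psme1, chr14:56209939-56210188 for Psme2 and chr8:108462293-108462542 for Psmb10. The Psme1 window is not upstream of the annotated gene: all 250 bases lie within its NCBIM37 span, 139 of them in annotated exons, and 5 of its 12 annotated transcripts start inside. The first 12 bases of the annotated Psme2 gene lie in its window, where 1 of its 10 transcripts starts, and the Psmb10 window lies wholly before its gene. Psme2 has 2 RefSeq starts, 80 bases apart, and the window of the upstream one is shown. The longest stretch outside annotated exons is printed for each gene: chr14:55578249-55578359 of GRCm38.p6 on the plus strand for Psme1 (111 bases, between annotated exons), chr14:55591114-55591351 on the minus strand for Psme2 (238 bases) and chr8:105938393-105938642 on the minus strand for Psmb10. Capitals would mark a match to any of the 4 motifs named next, and none of the 3 windows holds one.
Psme1: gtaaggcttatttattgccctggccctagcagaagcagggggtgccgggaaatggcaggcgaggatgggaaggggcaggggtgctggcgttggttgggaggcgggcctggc
Psme2: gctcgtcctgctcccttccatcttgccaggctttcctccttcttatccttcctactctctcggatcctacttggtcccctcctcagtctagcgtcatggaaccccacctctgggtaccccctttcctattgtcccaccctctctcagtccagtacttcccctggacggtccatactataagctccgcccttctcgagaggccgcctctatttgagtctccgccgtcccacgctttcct
Psmb10: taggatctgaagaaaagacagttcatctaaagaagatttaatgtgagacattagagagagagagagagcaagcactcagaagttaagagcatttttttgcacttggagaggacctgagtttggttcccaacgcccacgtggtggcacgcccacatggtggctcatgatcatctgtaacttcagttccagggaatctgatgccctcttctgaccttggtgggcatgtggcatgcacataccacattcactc

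Windows were found for 38 of the 46 members (41 windows, since some genes have more than 1 start). The motifs searched on both strands were the core of the interferon response element (GAAA, any 2 bases, then GAAA), the gamma-activated sequence (TTCNNNGAA), the antioxidant response element that NRF1 and NRF2 bind (TGACNNNGC) and the CCAAT box. No site of one motif overlapped a site of another. The interferon response element was in 3 member windows (7.32%), against 2.98% of all 32851 windows, and the gamma-activated sequence in 1 (2.44%, against 7.02%). The antioxidant response element was in 5 (12.2%, against 10.2%) and the CCAAT box in 13 (31.7%, against 33.8%). A match is a description of letters, not of binding, and these shares are close to those of all windows for the last 2 motifs. For the first 2 motifs the shares rest on only 3 and 1 of the 41 member windows, and no difference was tested.

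The sites of the interferon response element were all in constitutive genes, and they are shown with 20 bases on each side, in capitals for the match, to set beside the values of these genes. They lie in the windows of Psmb3 (chr11:97703251-97703300, plus strand), Psmd4 (chr3:95042665-95042714, minus strand) and Psmd9 (chr5:123228011-123228060, plus strand) of GRCm38.p6.
Psmb3: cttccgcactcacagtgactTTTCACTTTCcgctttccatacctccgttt
Psmd4: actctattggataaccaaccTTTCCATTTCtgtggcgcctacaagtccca
Psmd9: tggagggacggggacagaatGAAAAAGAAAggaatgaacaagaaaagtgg
Psmb3, a structural beta subunit, had a log2 fold change of -0.20 (SE 0.20), Psmd4, a ubiquitin receptor of the cap, 0.29 (SE 0.22), and Psmd9, an assembly chaperone, -0.11 (SE 0.19). None of the 3 passed the test. The antioxidant response element was in the windows of Psmc6, Psmd12 and Psmd9, whose sites are not printed, and of the catalytic genes Psmb5 and Psmb6. The sites of Psmb5 (chr14:54618014-54618062, minus strand) and Psmb6 (chr11:70525328-70525356, plus strand) are shown in the same way. In Psmb6 the match ends at the last base before the start. Both are shown because NRF1 is known to drive constitutive subunit genes.
Psmb5: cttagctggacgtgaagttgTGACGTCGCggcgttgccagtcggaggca
Psmb6: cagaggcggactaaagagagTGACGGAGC

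Among the 31 core and regulatory subunits, 26 had a negative log2 fold change and the median was -0.20, but none passed the edgeR test. Among all members 35 of 46 were negative (76.1%, median -0.19), where 50.0% of all genes were negative, with a median of -0.00077. Of the 46, 27 (58.7%) were lower in both libraries labelled knockout than in either control, against 26.7% of all genes, and 7 (15.2%) were higher in both, against 27.4% of all genes. The controls also differed from each other in these genes. Control replicate 3 was below control replicate 8 for 27 of the 31 subunits (87.1%), against 53.4% of all genes. The median over the 31 was -0.29 without control replicate 3 and -0.11 without control replicate 8.

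The 7 alpha ring genes, Psma1 to Psma7, had log2 fold changes from -0.39 (Psma1) to -0.08 (Psma2), all negative. Psma1 had 135 and 191 CPM under the knockout label and 208 and 218 CPM in the controls, and replicate 1 was the library that stood low. Psma2 had 162 and 170 CPM against 167 and 183 CPM, with overlapping groups. Of the 7 genes 5 were lower in both libraries labelled knockout than in either control, where 26.7% of all genes were. Psma8, an alpha subunit of testis proteasomes, had only 55 to 173 counts per library, or 1.79 and 1.87 CPM against 1.99 and 3.65 CPM.

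Of the 7 constitutive beta genes 6 had negative values and Psmb1, a structural subunit, a positive one. Psmb1 had 226 and 170 CPM under the knockout label and 154 and 166 CPM in the controls (log2 fold change 0.31, SE 0.22, edgeR adjusted p = 0.503). Psmb4, also structural, had the lowest log2 fold change of the ring, -0.40 (SE 0.22), with 106 and 144 CPM against 161 and 170 CPM. In both genes replicate 1 was the outlying library, in opposite directions.

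The 6 base ATPases form the ring of the cap that unfolds substrates, and 5 of them were lower in both libraries labelled knockout than in either control (26.7% of all genes). Their median log2 fold change was -0.40, the lowest of the groups of 5 or more members. Psmc1 had 99.5 and 163 CPM under the knockout label and 193 and 197 CPM in the controls (log2 fold change -0.57, SE 0.27, edgeR adjusted p = 0.433). Psmc4 had 94.4 and 112 CPM against 143 and 140 CPM (-0.45, SE 0.19, edgeR adjusted p = 0.429). Psmc5 had 102 and 130 CPM against 163 and 154 CPM (-0.45, SE 0.20). Psmc6 was the exception, with 165 and 137 CPM against 141 and 145 CPM (0.08, SE 0.19). For Psmc1, Psmc4 and Psmc5 the 2 controls lay closer to each other than the 2 knockout-labelled libraries did.

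The 11 non-ATPase subunits of the cap ran from -0.54 (Psmd6) to 0.30 (Psmd8), with 8 negative and a median of -0.26. Psmd6 had 65.7 and 102 CPM under the knockout label and 119 and 124 CPM in the controls. Psmd8 had 196 and 139 CPM against 133 and 138 CPM, and Psmd4, the ubiquitin receptor named above, 261 and 195 CPM against 182 and 191 CPM. In Psmd8 and Psmd4 replicate 1 was high while replicate 2 lay just above the controls. Psmd14, the deubiquitinase of the lid, had 148 and 127 CPM against 135 and 147 CPM, and Psmd2, a scaffold of the base, 380 and 356 CPM against 384 and 420 CPM.

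The values of the assembly factors lay within the range of the non-ATPase subunits. The base chaperones Psmd5, Psmd9 and Psmd10 had log2 fold changes from -0.11 to 0.06, and all 3 had overlapping groups. The core chaperones Psmg1, Psmg2, Psmg3 and Psmg4, which help to build the alpha ring, ran from -0.43 (Psmg3) to 0.05 (Psmg4). Psmg3 had 16.02 and 22.5 CPM under the knockout label and 22.5 and 29.4 CPM in the controls, and Psmg4 7.21 and 8.03 CPM against 6.60 and 8.13 CPM. Psmg4 turned negative without library scaling (-0.023), as did Psmd10 (-0.0046).

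Psme4 encodes the gate activator PA200, and Psmf1 the proteasome inhibitor PI31. Both genes were higher in each library labelled knockout than in either control (27.4% of all genes). Psme4 had 452 and 431 CPM under the knockout label and 358 and 373 CPM in the controls (log2 fold change 0.27, SE 0.20, edgeR adjusted p = 0.513). Psmf1 had 94.6 and 90.2 CPM against 88.8 and 85.6 CPM (0.08, SE 0.17). Psmc3ip, which is no subunit, had 10.8 and 16.4 CPM against 20.8 and 19.9 CPM (-0.58, SE 0.27).

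**Figure D3:**
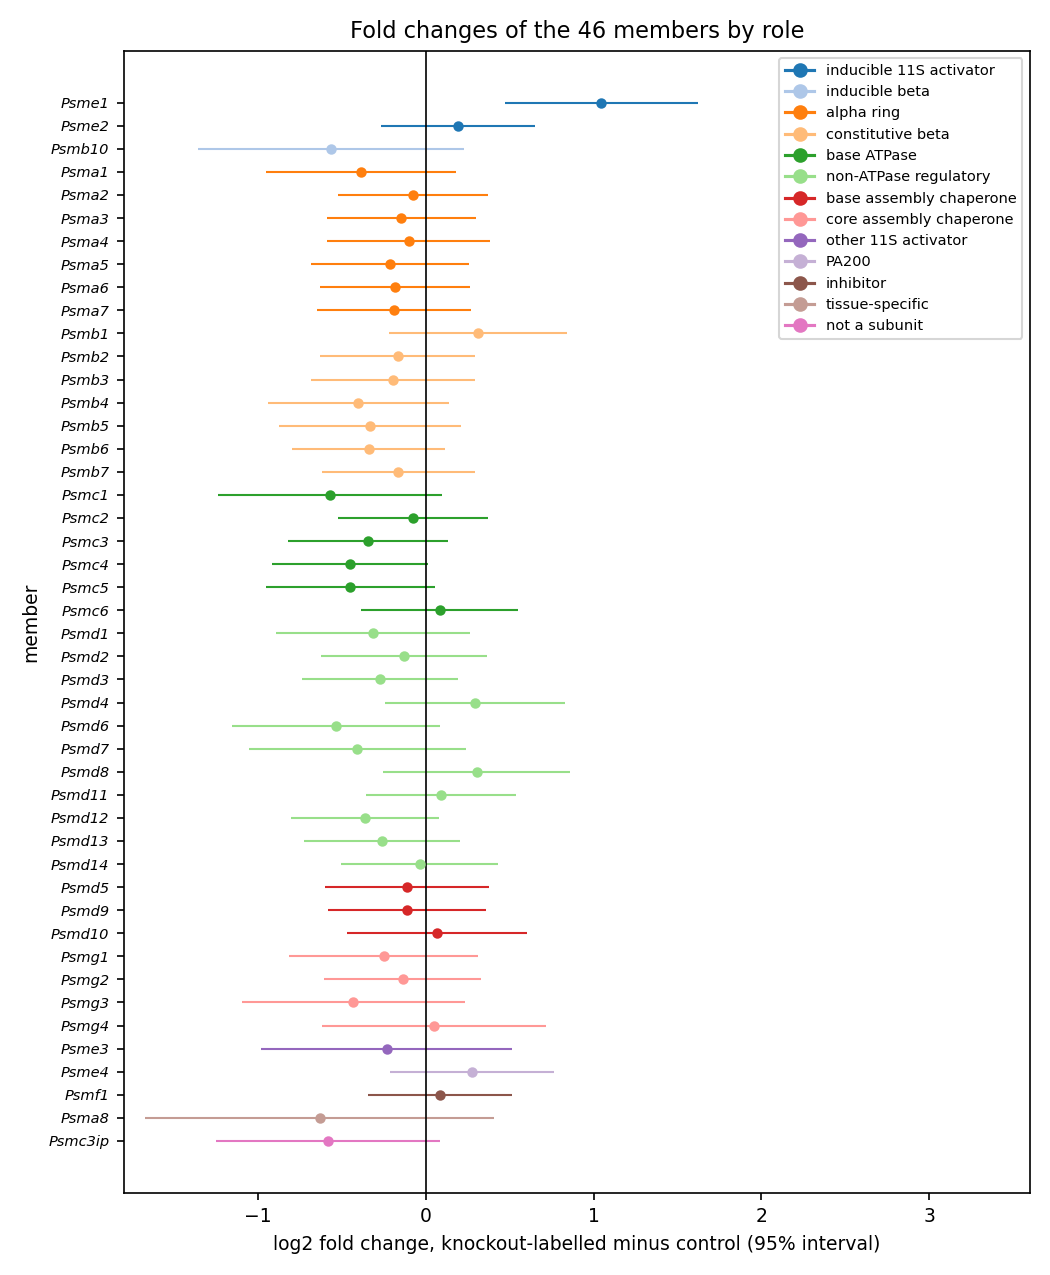
Log2 fold change (knockout-labelled minus control, edgeR) of each of the 46 members, with its 95% interval before adjustment, coloured by role. Psme1 is the only member whose interval lies wholly on one side of 0 (0.47 to 1.62).

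For 40 of the 46 members the distance from the control mean was larger in knockout-labelled replicate 1 than in replicate 2, as for 82.6% of all genes. The median over the 46, as log2 of the ratio to the control mean, was -0.28 in replicate 1 and -0.13 in replicate 2. Replicate 1 was below both controls for 34 of the 46 (44.1% of all genes), and replicate 2 for 30 (35.3% of all genes). Psmc1 was -0.97 in replicate 1 and -0.26 in replicate 2, and Psmd8 was 0.53 and 0.04. Psme2 was among the 6 that lay farther in replicate 2, at 0.12 and 0.26.

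The calls differed with the library left out, in fits of 1 knockout-labelled library whose spread comes from the 2 controls alone and which are therefore no replicated test of the knockout-labelled group. Without knockout-labelled replicate 2, edgeR called 1 member higher (Psme1), where 17.3% of all genes were called higher. It called 11 lower, where 15.3% of all genes were called lower: Psma1, Psmb4, Psmb5, Psmb10, Psmc1, Psmc4, Psmc5, Psmd6, Psmd7, Psmg3 and Psmc3ip. Without knockout-labelled replicate 1 it called 0 members in either direction, where 1.29% of all genes were higher and 0.0467% lower. Replicate 1 is the library in which neutrophil markers summed to 217 CPM, and their part in these values was not tested. Members with a negative value numbered 34 without replicate 1 and 35 without replicate 2.

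**Figure D4:**
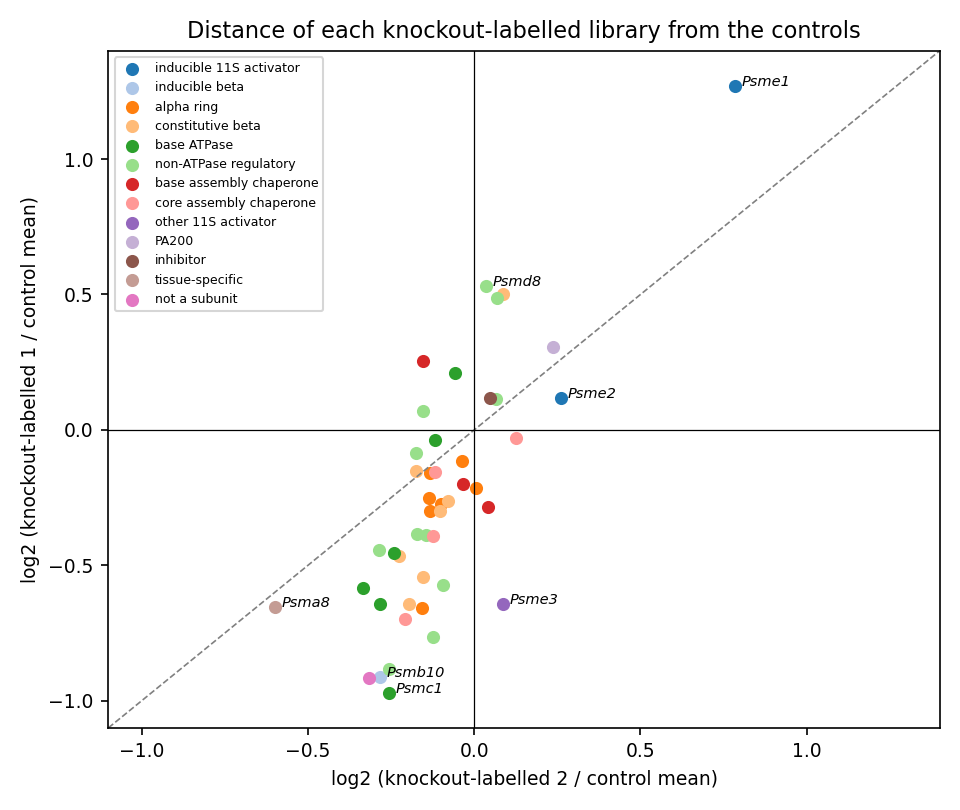
Log2 ratio of each member to the control mean in knockout-labelled replicate 2 (horizontal) and replicate 1 (vertical), coloured by role, with the dashed line of equality. Most members lie below 0 on both axes and farther from 0 in replicate 1, and Psme1 stands alone at the upper right.

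Levels can be compared between genes only per length, as CPM per kilobase of annotated exons (CPM per kb). In the controls the 31 core and regulatory subunits, which enter the particle in fixed numbers, had mean levels from 21.7 CPM per kb (Psmd11) to 180 CPM per kb (Psmb7), with a median of 66.1. The middle of the order could not be resolved: Psmd4, Psmd1, Psmc6, Psma2 and Psmc4 had mean levels between 65.2 and 66.4 CPM per kb, closer to each other than the controls of Psma2, at 62.6 and 68.5. Exon length covers every annotated transcript, so a gene with long unused exons has too low a level. In the knockout-labelled libraries the 31 ran from 23.1 to 191 CPM per kb, with a median of 62.2.

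On this scale Psme1 and Psmb10 lay below every core subunit in the controls, Psme2 lay above Psmd11 alone, and Psme3 was high. Psme3 had a level of 260 and 229 CPM per kb in the controls, above every core subunit. Psme2 had 26.5 and 29.7 CPM per kb, Psme1 15.9 and 18.5 CPM per kb, and Psmb10 10.02 and 14.4 CPM per kb. In the knockout-labelled libraries Psme1 reached 41.4 and 29.6 CPM per kb, beside 30.53 and 33.7 for Psme2. Psmb10 was at 6.47 and 10.02 CPM per kb there, while Psmb7 was at 162 and 159. Psmb10 was thus the least abundant inducible gene measured, per length, in each of the 4 libraries.

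**Figure D5:**
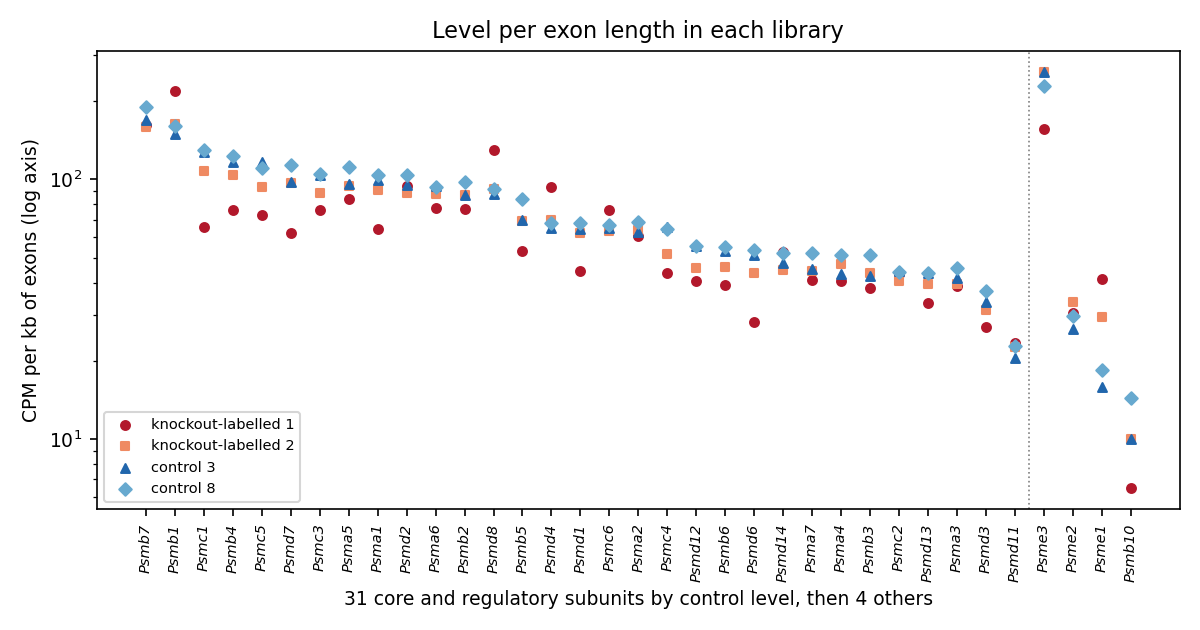
Level as CPM per kb of annotated exons (log axis) in each library, for the 31 core and regulatory subunits in the order of their control mean and then for Psme3, Psme2, Psme1 and Psmb10. Core subunits run from 180 CPM per kb (Psmb7) to 21.7 (Psmd11) in the controls, and Psmb10 lies below all of them in each library.

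Reads of 10 members could be shared with another annotated gene through 6 to 405 overlapping exon bases. Psmb5 overlaps Mir686 and Psmd1 overlaps Armc9 on the same strand, and the other overlaps are with genes on the opposite strand, where it matters that the strand of the libraries is not stated. These were Psma4, Psma5, Psmb5, Psmb7, Psmc3, Psmc3ip, Psmd1, Psmd3, Psmd13 and Psme1.

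Other genes of the pathway were taken as whole lists. Of 19 measured of 20 cofactors and shuttle proteins 0 passed, with a median log2 fold change of -0.14, and 9 were lower (26.7% of all genes) and 4 higher (27.4% of all genes) in both libraries labelled knockout than in either control. Zfand5, which encodes a protein that stimulates the proteasome, had the smallest p, with 215 and 96.0 CPM under the knockout label and 79.3 and 72.9 CPM in the controls (log2 fold change 1.03, SE 0.38, edgeR adjusted p = 0.417). Pomp, the chaperone of core assembly, had 61.5 and 78.5 CPM against 82.8 and 92.4 CPM (-0.32, SE 0.21), and Adrm1, a ubiquitin receptor, 83.7 and 106 CPM against 131 and 123 CPM (-0.42, SE 0.20).

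Of 9 genes of ubiquitin supply and unfolding 0 passed, and the median was -0.0018. Rps27a, which encodes ubiquitin fused to a ribosomal protein, had the smallest p, with 1289 and 889 CPM against 629 and 834 CPM (log2 fold change 0.57, SE 0.30, edgeR adjusted p = 0.439). Vcp, the unfoldase that hands proteins to the proteasome, had 425 and 575 CPM against 597 and 611 CPM (-0.27, SE 0.24).

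Among factors known to drive subunit genes 6 of 9 were measured, 0 passed, and in both libraries labelled knockout 3 were higher than in either control (27.4% of all genes) and 1, Ngly1, was lower (26.7% of all genes). Irf9, a gene of interferon signalling with the smallest p, had 92.1 and 106 CPM against 39.9 and 34.0 CPM (log2 fold change 1.42, SE 0.20, edgeR adjusted p = 0.105). Nfe2l1, which encodes NRF1, had 81.4 and 96.5 CPM against 94.3 and 78.2 CPM (0.04, SE 0.20). Of 9 genes that supply peptides to MHC class I, 0 passed, 5 were higher in both libraries labelled knockout (27.4% of all genes) and 1, Pdia3, was lower (26.7% of all genes), with a median log2 fold change of 0.41. B2m, the light chain of class I molecules, had 234 and 87.6 CPM against 38.8 and 43.4 CPM (1.97, SE 0.46, edgeR adjusted p = 0.287), and Tap1, a subunit of the peptide transporter, 13.5 and 2.82 CPM against 0.834 and 1.01 CPM (3.12, SE 0.77).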

How the data were processed

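The authors deposited raw counts per gene (whole numbers) for 4 libraries, with their own p-value and adjusted p-value per gene, in a table of 10716 genes. Per the submitters' processing notes, which give no role for each tool, the tools were BWA 0.6.2, Bowtie2 2.1.0.0, TopHat2 2.0.8, Trimmomatic 0.30, GATK, HTSeq, SAMtools 0.1.19, limma, edgeR and Cufflinks, and the builds were NCBIM37 and mm9 (the same assembly). Total counts ran from 28356401 to 44016809.

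Groups came from the titles. The comparison was fitted on all genes in edgeR 4.0.16 under R 4.3.3 (filterByExpr, which removed 0 genes, TMM, glmQLFit with robust=TRUE and legacy=TRUE, two-sided quasi-likelihood F test, Benjamini-Hochberg over all genes, threshold 0.05), with 2 residual degrees of freedom, and was tested on simulated data. The common biological coefficient of variation was 25.6%. The SE of a log2 fold change is its size divided by the square root of F, and CPM use TMM-scaled library sizes. Alternatives were RLE scaling, no scaling, no filter, a stricter filter (1 CPM in every library of a group), DESeq2 1.42.0, the likelihood ratio test, legacy=FALSE and leaving out each library. Positions and exon lengths came from an NCBIM37 annotation, with all 46 members found. Promoter windows are RefSeq's (GRCm38.p6).

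The members, lists and roles were chosen with earlier results of these data known. Every member may be named, and values per library are given for the inducible genes, their counterparts and the extremes of each role. From each other list the rule takes the members past the threshold or the 1 with the smallest p, and Pomp, Adrm1, Vcp, Nfe2l1 and Tap1 were added with their values known.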

Additional observations from a re-analysis of the deposited data

How the results depend on the processing

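No paired analysis was possible because the groups share no replicate number. The 46 members under 11 alternatives gave 506 log2 fold changes, of which 478 kept their direction and their side of the threshold, 14 passed it and 14 changed sign without passing. The calls over all genes went from 11 higher and 0 lower to 353 and 21 in DESeq2, 331 and 18 in the likelihood ratio test, 85 and 2 on unscaled libraries, and between 25 and 1851 higher and 1 and 1641 lower when a library was left out (the most without knockout-labelled replicate 2). Members called higher went from 0 to 1 with DESeq2, 1 with the likelihood ratio test and 0 to 1 when a library was left out, and members called lower to between 0 and 11. Leaving out a library moved the log2 fold change across 0 for Psma4 (-0.23 to 0.015), Psmc6 (-0.059 to 0.20), Psmd5 (-0.30 to 0.041), Psmd9 (-0.24 to 0.011), Psmd10 (-0.15 to 0.24), Psmd14 (-0.15 to 0.060), Psme3 (-0.66 to 0.087) and Psmg4 (-0.093 to 0.20). Without library scaling Psmd10 was at -0.0046 and Psmg4 at -0.023. The cause was not tested. Removing library scaling moved the median of all genes by -0.07. Under the 11 alternatives the median of the 3 inducible members stayed between 0.11 and 0.27. That of the other 43 stayed between -0.30 and -0.11. In the main fit the median of the 3 was simply the value of Psme2 (0.19, SE 0.19), whose count is uncertain. Psme1 (1.05) and Psmb10 (-0.56) lay on opposite sides of 0, so this median does not describe the 3 as a group. With 2 libraries per group the spread between libraries limits the precision. No member had fewer than 55 counts in any library. Psma8, which had that lowest count, also had the largest SE of the members (0.42), and the part of counting error in it was not tested.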
